A study of Mus musculus with 12 samples.

Results

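The genes described here are the 10 mouse genes of MHC class II presentation measured in whole colon: H2-Aa, H2-Ab1, H2-Eb1, Cd74, H2-DMa, H2-DMb1, H2-DMb2, H2-Oa, H2-Ob and Ciita. They were chosen by symbol and are 10 of the 54532 genes in the deposited table. RNA sequencing covered 12 libraries in 4 groups of 3. Tmem173fl/fl mice carry a floxed Tmem173, the gene of the DNA-sensing adaptor STING, and no Cre. Tmem173iΔmye mice carry the same floxed gene with Lyz2-Creert2, a tamoxifen-inducible Cre driven from the Lyz2 locus, which is active mainly in macrophages, monocytes and neutrophils. Mice of either genotype were on the C57BL/6N background, were 6 to 8 weeks old and had 5 tamoxifen injections, the controls included. For colitis, dextran sulfate sodium (DSS), a polymer toxic to colonic epithelium, was in the drinking water for 7 days, and plain water followed for 1 day. The untreated groups drank water. The colitic Tmem173iΔmye libraries are numbered 1, 2 and 5 in the labels, and the other groups 1, 2 and 3.

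MHC class II molecules are pairs of an alpha and a beta chain that show peptides from engulfed material to CD4+ T cells. The invariant chain, Cd74, fills the groove of newly made class II molecules and leads them to the endosome. There cathepsins and other proteases cut it down, H2-DM exchanges the remaining fragment for peptide, and H2-O, which is made mainly by B cells, restrains H2-DM. Ciita does not bind DNA itself. It is recruited by the RFX, CREB and NF-Y proteins that sit on the X and Y boxes of class II promoters, and interferon gamma raises it, in part through Irf1. Dendritic cells and B cells make class II at rest, macrophages make variable amounts, and gut epithelium can be induced to do so.

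In the mm10/GRCm38 annotation of the table, 8 of the 10 genes lie within 224 kb of chromosome 17. In order along it they are H2-Oa (chr17:34092340-34095234), H2-DMa (chr17:34135182-34139101), H2-DMb2 (chr17:34143307-34151553), H2-DMb1 (chr17:34153072-34160230), H2-Ob (chr17:34238903-34245907), H2-Ab1 (chr17:34263209-34269418), H2-Aa (chr17:34282744-34287827) and H2-Eb1 (chr17:34305877-34316199). H2-Aa is on the minus strand and the other 7 are on the plus strand. Cd74 and Ciita lie on other chromosomes. All 10 are annotated as protein-coding, and counts refer to a gene as a whole. H2-DMb1 and H2-DMb2 are close copies separated by 1518 bases, so the split of reads between them depends on how the counting treated reads that fit either. Ciita overlaps Dexi on the opposite strand, which had 182 to 449 reads per library. Whether strand was used in counting is not given in the sources used here.

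Promoter stretches are shown because the results below divide the genes into a set that fell together and a set that did not, and these are the letters upstream of the RefSeq start sites (GRCm38.p6) in members of either set. RefSeq promoter windows, from 250 bases before to 50 bases after the start, were matched for 7 of the 10 genes. The 2 windows of H2-DMa start upstream of the gene as the table places it and were left aside, and neither holds the letters searched below. The table and RefSeq also place other starts differently: the RefSeq start of H2-DMb2, at base 34145249, lies inside the gene of the table, the stretches of H2-DMb2 and H2-DMb1 lie wholly inside the genes of the table, and that of H2-Oa reaches into it. H2-Ab1, Cd74 and Ciita were not matched. The other 6 genes are printed 5′ to 3′ on the strand of the gene, 60 bases each. Capitals mark TGATTGG, the letters of a Y box core, and the fixed letters of AACNNATG, part of an X box, whose N positions stay in lower case. The letters of these searches were chosen with the sequences in view. The stretches are at chr17:34287859-34287918 for H2-Aa (minus strand), chr17:34305761-34305820 for H2-Eb1, chr17:34153083-34153142 for H2-DMb1, chr17:34145112-34145171 for H2-DMb2, chr17:34092289-34092348 for H2-Oa and chr17:34238801-34238860 for H2-Ob.
H2-Aa: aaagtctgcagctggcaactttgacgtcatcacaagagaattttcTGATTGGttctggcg
H2-Eb1: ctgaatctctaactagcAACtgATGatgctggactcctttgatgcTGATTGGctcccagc
H2-DMb1: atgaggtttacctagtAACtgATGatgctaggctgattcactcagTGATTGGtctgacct
H2-DMb2: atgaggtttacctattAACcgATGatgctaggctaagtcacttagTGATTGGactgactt
H2-Oa: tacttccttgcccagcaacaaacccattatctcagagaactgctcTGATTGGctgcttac
H2-Ob: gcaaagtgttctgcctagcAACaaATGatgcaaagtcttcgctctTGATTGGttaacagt

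A stretch was printed only where the window held TGATTGG, so that all 6 hold it was fixed in advance. It starts 45 to 92 bases before the start site. Of the 32851 promoter windows of the same length, 7.82% hold it when both strands were searched, a share with which the 6 cannot be compared. H2-Eb1, H2-DMb1, H2-DMb2 and H2-Ob also hold AACNNATG, which is in 8.86% of all windows. In these 4 genes it starts 26 to 29 bases before TGATTGG on the same strand. An AACNNATG starting 15 to 45 bases before a TGATTGG on the same strand was found in 18 windows, or 0.0548% of all, of 18 genes that include these 4 and the related H2-Eb2. H2-DMb1 and H2-DMb2 hold the letters at the same spacing of 29 bases. Of the genes with the pair, H2-Eb1 and H2-DMb1 are in the set that fell and H2-DMb2 and H2-Ob in the other. AACNNATG is only part of an X box, so its absence from H2-Aa and H2-Oa does not show that they lack one. The matches are letters in a window and nothing about binding was measured.

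Cd74 lies at chr18:60803848-60812646 and Ciita at chr16:10480059-10528418, each on the plus strand. Levels between genes are given as counts-per-million (CPM), scaled by the trimmed mean of M values (TMM) and divided by the gene length in kilobases. In untreated Tmem173fl/fl colon Cd74 was highest at 1433 ± 107 (SD, n = 3), and no library of any other member reached its range. The classical chains followed at 406 ± 74.9 for H2-Aa, 343 ± 43.0 for H2-Eb1 and 321 ± 21.2 for H2-Ab1, and these neighbours overlapped between libraries. The H2-DM genes were lower, with H2-DMb1 at 63.7 ± 2.8 and H2-DMa at 44.2 ± 6.49. Ciita was at 10.5 ± 0.925, H2-DMb2 at 6.29 ± 2.15, H2-Ob at 5.14 ± 1.82 and H2-Oa at 1.92 ± 1.06, of which H2-DMb2 and H2-Ob overlapped. The first 6 places were held by the same 6 genes in every group, with Cd74 above all others, while Ciita moved from seventh place in untreated mice to ninth in colitic Tmem173fl/fl mice, where its range overlapped those of H2-Ob and H2-Oa. H2-Ea-ps, the copy of the E alpha chain gene that is broken in C57BL/6 mice, had at most 1 read in any library. H2-Eb1 RNA is therefore reported here without an E alpha partner.

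The effect of DSS in mice with intact myeloid STING was asked by comparing colitic with untreated Tmem173fl/fl colon. The class II chains, their chaperone, the main H2-DM genes and Ciita were all lower in colitis. Of the 10 genes, 7 fell by an adjusted p under 0.05 and a fold of at least 2, which is how a gene is called here. Across all 24102 genes tested, 7.61% were called lower. H2-DMb2, H2-Oa and H2-Ob were not called. The median log2 change of the 10 genes was -1.41, against 0.03 over all genes tested. Values per library are TMM-scaled CPM, not divided by length, and tests are edgeR's quasi-likelihood test with Benjamini-Hochberg adjustment over all genes tested.

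H2-Aa, the alpha chain of the I-A molecule, was at 719, 644 and 916 CPM in untreated and 226, 329 and 120 CPM in colitic Tmem173fl/fl libraries. The groups did not overlap, and the fitted log2 change was -1.69 ± 0.32 (SE), or 3.22-fold lower, with an edgeR adjusted p of 0.00246. H2-Ab1, its beta chain, was at 505, 506 and 565 CPM untreated and 180, 250 and 107 CPM colitic. Every colitic library was below every untreated one, and the log2 change was -1.48 ± 0.27 (edgeR adjusted p = 0.00184). H2-Eb1, the I-E beta chain, was at 407, 355 and 457 CPM untreated and 185, 281 and 105 CPM colitic. Its fall was the smallest of the 7 called, at -1.02 ± 0.30 (edgeR adjusted p = 0.0232), and the call was lost when any of 4 libraries was left out, with -0.75 and under the fold limit without colitic library 3. It was also lost in limma with either pseudocount (adjusted p = 0.0522 and 0.0507) and in 1 edgeR fit of all 12 libraries (adjusted p = 0.0545).

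Cd74, the invariant chain, was at 2147, 1854 and 2059 CPM in untreated and 670, 1039 and 397 CPM in colitic Tmem173fl/fl libraries. The log2 change was -1.45 ± 0.30 with an edgeR adjusted p of 0.00357. H2-DMa, the alpha chain of the peptide exchanger, was at 79.0, 60.2 and 78.2 CPM untreated and 22.6, 36.1 and 14.1 CPM colitic, a log2 change of -1.5 ± 0.29 (edgeR adjusted p = 0.00269). Its partner H2-DMb1 was at 97.6, 89.8 and 96.3 CPM untreated and 29.5, 44.1 and 16.5 CPM colitic, a log2 change of -1.58 ± 0.28 (edgeR adjusted p = 0.00184). In these 3 genes too the groups did not overlap, and colitic library 2 was the highest and library 3 the lowest of the colitic libraries.

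Ciita, the class II transactivator, was at 95.3, 94.0 and 110 CPM in untreated and 28.8, 67.6 and 13.5 CPM in colitic Tmem173fl/fl libraries. The groups did not overlap, but the colitic libraries spread over a wide range. The log2 change was -1.37 ± 0.44 with an edgeR adjusted p of 0.0350, and the gene was not called by DESeq2 (adjusted p = 0.0665), by limma with a pseudocount of 0.1 (adjusted p = 0.0558) or when any of 5 of the 6 libraries was left out. Its log2 change was -2.19 without colitic library 2 and -1.0 without colitic library 3. Of the 10 genes, 7 had every colitic library below every untreated one, against 25.4% of all genes tested.

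**Figure D1:**
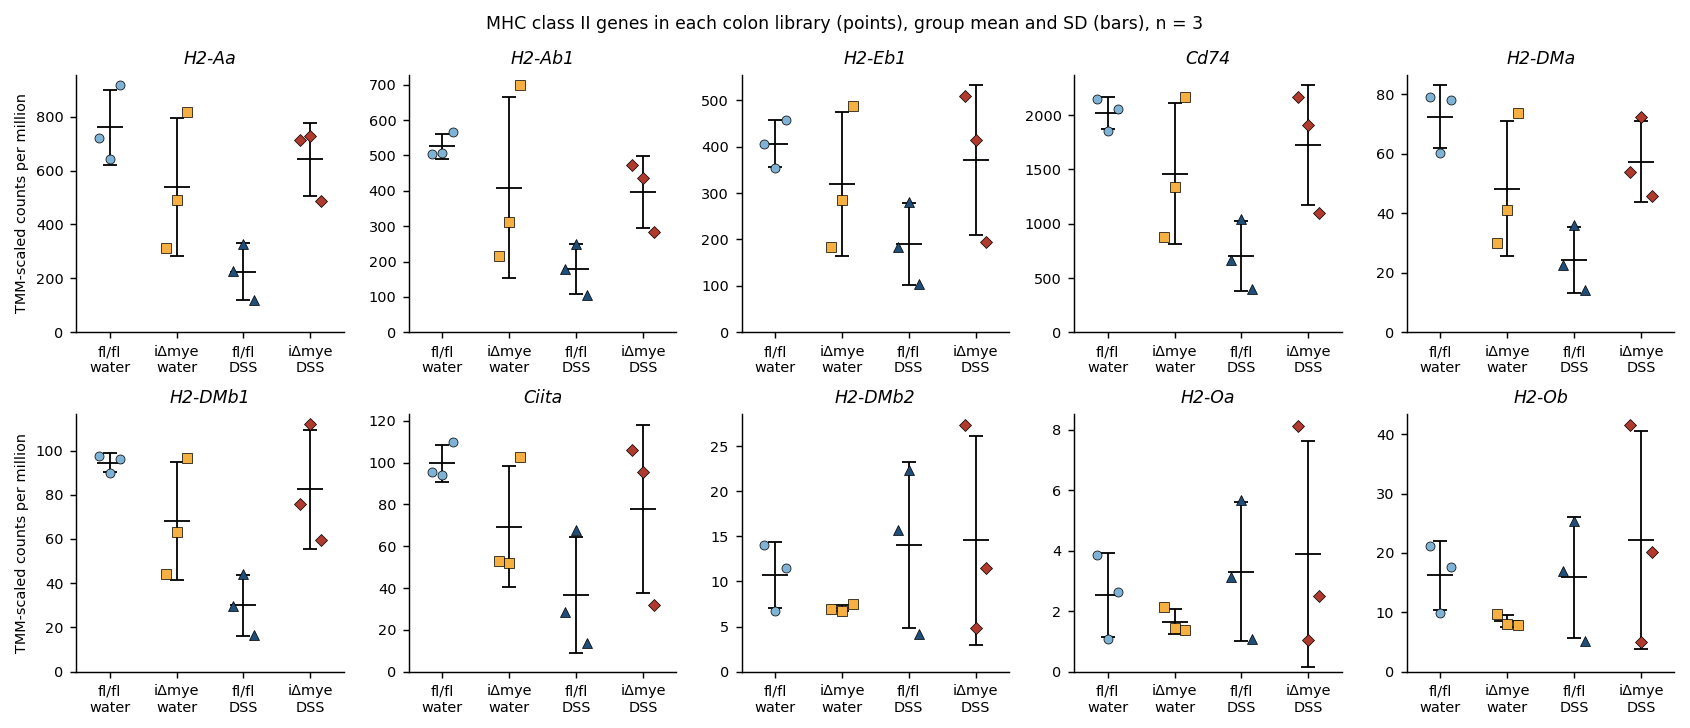
Each panel plots TMM-scaled CPM of a class II gene for the 12 colon libraries by group, with points for libraries and bars for the group mean and SD (n = 3). In the first 7 panels the colitic Tmem173fl/fl libraries sit below all untreated Tmem173fl/fl libraries, while in the panels of H2-DMb2, H2-Oa and H2-Ob the groups overlap and spread widely in colitis.

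The other 3 genes did not share this fall. H2-Ob, the beta chain of the H2-DM inhibitor, was at 21.1, 9.88 and 17.6 CPM in untreated and 17, 25.4 and 5.24 CPM in colitic Tmem173fl/fl libraries. Colitic library 2 lay above the untreated libraries, library 3 below them and library 1 within their range. The log2 change was 0.05 ± 0.47 (edgeR adjusted p = 0.950), and its sign turned in 7 of 14 alternatives. H2-Oa, its alpha chain, was at 3.86, 1.08 and 2.63 CPM untreated and 3.14, 5.68 and 1.09 CPM colitic, with a log2 change of 0.48 ± 0.58 (edgeR adjusted p = 0.566). It had only 16 to 120 reads per library, the fewest of the 10. H2-DMb2, the second H2-DM beta gene, was at 14, 6.77 and 11.5 CPM untreated and 15.7, 22.3 and 4.15 CPM colitic, with a log2 change of 0.47 ± 0.49 (edgeR adjusted p = 0.506). In all 3 genes colitic library 2 was high and library 3 low.

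These 3 genes varied between libraries as B cell markers did. The summed CPM of 10 B cell markers (Ms4a1, Cd79a, Cd79b, Cr2, Pax5, Fcer2a, Blk, Cd22, Fcrla and Cxcr5) ranged from 84.6 to 154 in untreated Tmem173fl/fl, 60.1 to 70.8 in untreated Tmem173iΔmye, 43.1 to 222 in colitic Tmem173fl/fl and 35.3 to 376 in colitic Tmem173iΔmye libraries. On the log2 scale, Pearson's r with this sum over the 12 libraries was 0.98 for H2-Ob, 0.97 for H2-DMb2 and 0.94 for H2-Oa, and after centring within groups it was 0.98, 0.97 and 0.94. For the other 7 genes r over the 12 libraries was between 0.07 and 0.27, and within groups between 0.14 and 0.39. These are descriptions over libraries that share their depth scaling and mixture of cells. Among 14559 genes with a mean of at least 1 FPKM, the deposited length-scaled unit, those most like H2-Ob over the 12 libraries included Ighd (r = 0.97), Ms4a1 (0.97), Fcmr (0.96), Pax5 (0.96) and Chst3 (0.96), a comparison made after the values were seen. In bulk RNA, fewer cells of a type and less RNA per cell cannot be told apart.

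**Figure D2:**
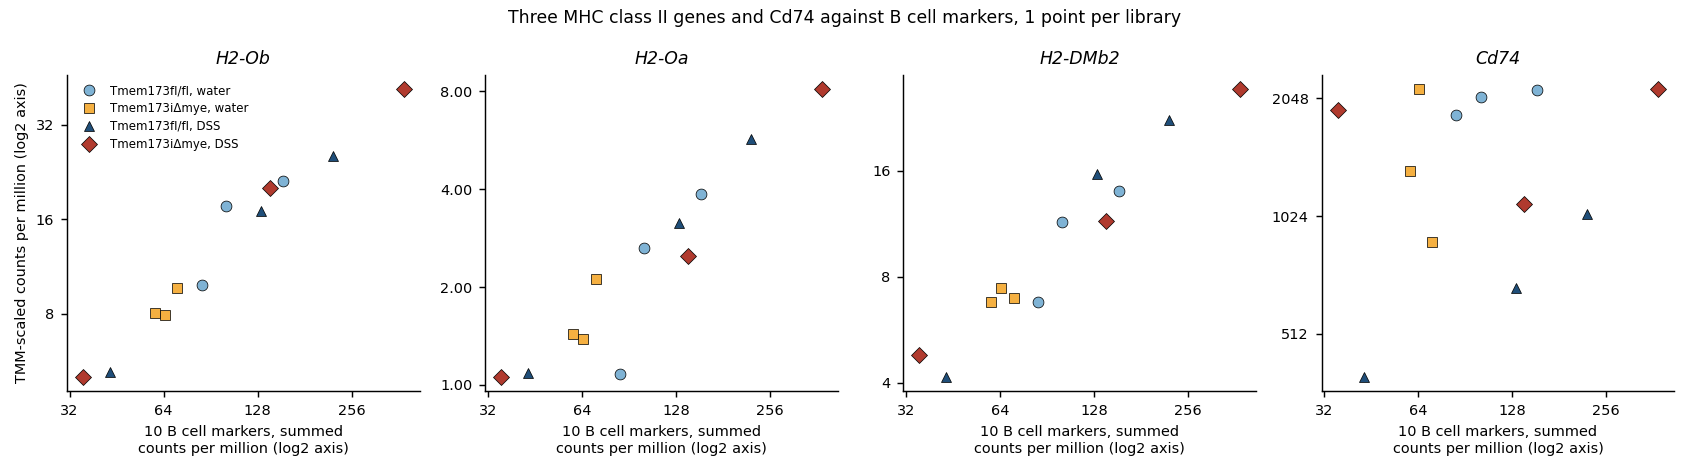
Each point is a library, with the summed CPM of 10 B cell markers on the horizontal axis and the CPM of the named gene on the vertical axis, both on log2 scales. H2-Ob, H2-Oa and H2-DMb2 rise along the B cell sum (r = 0.98, 0.94 and 0.97), and Cd74 does not (r = 0.22).

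The classical beta gene H2-Eb2, no member of the 10, was at 8.18, 2.44 and 5.20 CPM in untreated and 4.93, 7.72 and 1.91 CPM in colitic Tmem173fl/fl libraries. It was among the 6 genes most like H2-Ob once groups were centred (r = 0.98). Its high and low libraries were those of H2-Ob, so the classical chain genes did not all follow H2-Eb1.

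Ratios per gene length within a library show which pairs kept their proportion. H2-O over H2-DM, computed as H2-Oa plus H2-Ob over H2-DMa plus H2-DMb1 plus H2-DMb2, was 0.0790, 0.0391 and 0.0636 in untreated and 0.182, 0.191 and 0.112 in colitic Tmem173fl/fl libraries. The colitic ratios were all above the untreated ones, with means of 0.162 ± 0.0430 and 0.0606 ± 0.0201 (SD, n = 3 each). The ratio of H2-DMb2 to H2-DMb1 was 0.125, 0.0654 and 0.103 untreated and 0.463, 0.440 and 0.218 colitic, again without overlap. By contrast, Cd74 over the mean of H2-Aa, H2-Ab1 and H2-Eb1 stayed between 3.59 and 4.41 in all 12 libraries, and Ciita over Cd74 lay between 0.00429 and 0.00962. The ratios were fixed as descriptions and were not tested. In untreated Tmem173iΔmye mice H2-O over H2-DM was 0.0573 ± 0.0297, and in colitic Tmem173iΔmye mice it was 0.108 ± 0.0871, with library 1 at 0.194 and library 2 at 0.0197.

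**Figure D3:**
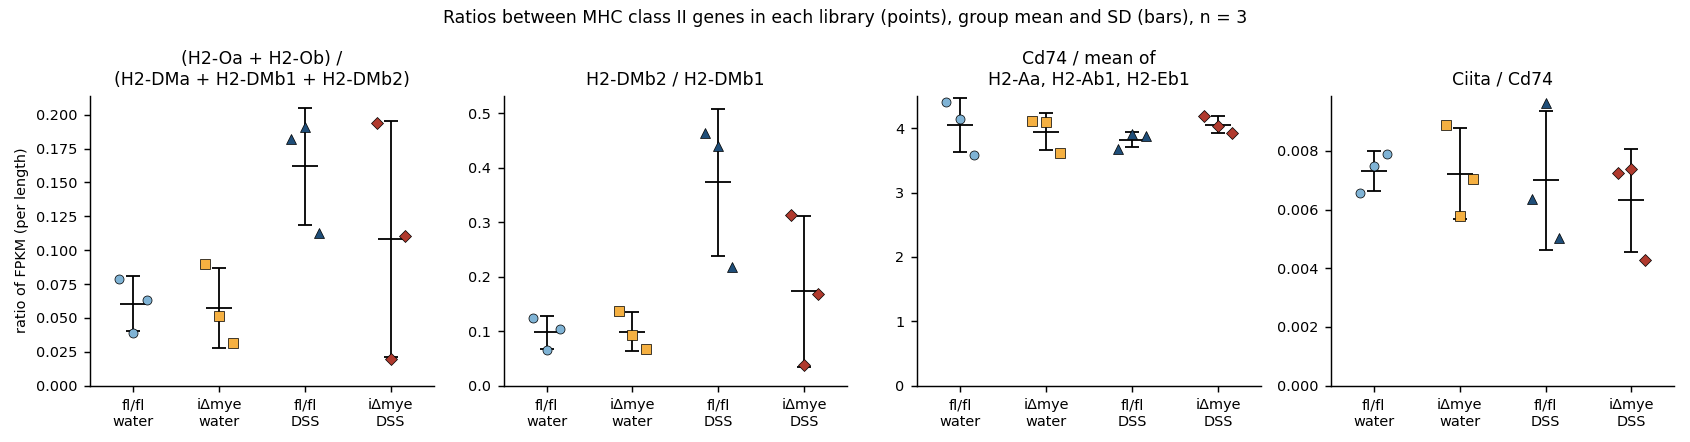
The panels plot ratios of FPKM between class II genes for each library by group, with the group mean and SD (n = 3). H2-O over H2-DM and H2-DMb2 over H2-DMb1 are higher in all 3 colitic than in all 3 untreated Tmem173fl/fl libraries, and Cd74 over the classical chains lies between 3.59 and 4.41 throughout.

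Tmem173iΔmye mice are bred so that Cre deletes Tmem173 in myeloid cells, a deletion not measured separately here. In these mice the same comparison of colitic with untreated colon called none of the 10 genes, against 2.08% of all genes. DESeq2 and limma also called none. At an unadjusted edgeR p under 0.05 there was 1 gene, H2-Ob, against 15.6% of all genes. The median log2 change of the 10 genes was 0.24, against 0.02 over all genes. Cd74 was at 881, 1336 and 2164 CPM in untreated and 2164, 1906 and 1101 CPM in colitic Tmem173iΔmye libraries. The groups overlapped across nearly their whole range, with a log2 change of 0.23 ± 0.34. H2-Aa was at 314, 490 and 818 CPM untreated and 712, 729 and 486 CPM colitic, a log2 change of 0.24 ± 0.33. H2-Ab1 was at 216, 312 and 699 CPM untreated and 473, 435 and 283 CPM colitic (-0.05 ± 0.39), and its sign turned in 5 of 14 alternatives. H2-Eb1 was at 185, 286 and 487 CPM untreated and 508, 414 and 194 CPM colitic (0.22 ± 0.40). The sign of H2-Eb1 turned in 2 of 14 alternatives, and those of H2-Aa and Cd74 in 1 of 14 each. Each of these 4 genes was highest among untreated libraries in library 3 and lowest among colitic libraries in library 5.

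The H2-DM genes were as spread out. H2-DMa was at 30.2, 41 and 73.8 CPM in untreated and 53.9, 72.4 and 45.7 CPM in colitic Tmem173iΔmye libraries, with a log2 change of 0.24 ± 0.32. H2-DMb1 was at 44.2, 63.4 and 96.8 CPM untreated and 75.8, 112 and 59.6 CPM colitic (0.27 ± 0.31). Ciita was at 52.9, 52.2 and 103 CPM untreated and 106, 95.3 and 31.9 CPM colitic (0.16 ± 0.41). For none of these 3 genes were the groups apart. The sign turned in 1 of 14 alternatives for H2-DMa and 2 of 14 for Ciita.

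The B cell linked genes had larger fitted changes and wider errors. H2-Ob was at 9.65, 8.08 and 7.94 CPM in untreated and 41.5, 5.04 and 20.2 CPM in colitic Tmem173iΔmye libraries. Colitic library 1 was the highest of all 12 libraries and library 2 the lowest, so the groups overlapped despite a log2 change of 1.37 ± 0.56 (unadjusted p = 0.0342, edgeR adjusted p = 0.271). Without colitic library 2 the log2 change of H2-Ob was 1.86 and the gene was called (edgeR adjusted p = 0.0351). H2-Oa was at 2.12, 1.44 and 1.38 CPM untreated and 8.12, 1.06 and 2.49 CPM colitic, with a log2 change of 1.23 ± 0.64 (edgeR adjusted p = 0.402). H2-DMb2 was at 6.98, 6.77 and 7.45 CPM untreated and 27.4, 4.79 and 11.5 CPM colitic, with a log2 change of 1.04 ± 0.50 (edgeR adjusted p = 0.358). Without colitic library 1 the log2 changes were 0.56 for H2-Ob, 0.11 for H2-Oa and 0.21 for H2-DMb2, and none was called. The summed B cell markers moved with these genes, at 376, 35.3 and 140 CPM in colitic libraries 1, 2 and 5. The part of the markers in these values was not tested.

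Without DSS, the genotypes were compared to ask whether class II RNA differed before colitis. All 10 genes had fitted log2 changes below 0 in Tmem173iΔmye mice, with a median of -0.50, against 0.00 over all genes. None was called by edgeR, DESeq2 or limma, and edgeR called 0% of all genes. At an unadjusted edgeR p under 0.05 there were 4 genes, H2-Ob, H2-DMb2, Ciita and H2-DMa, against 2.99% of all genes. H2-Ob had the largest difference, at -0.91 ± 0.26 (unadjusted p = 0.00337, edgeR adjusted p = 1), and was the only member lower in all 3 Tmem173iΔmye than in all 3 Tmem173fl/fl libraries, against 3.68% of all genes. The 10 B cell markers were also all below 0 in this comparison, with a median of -0.85 and none called, and their part in the H2-Ob and H2-DMb2 values was not tested. The chains and Cd74 differed by -0.34 to -0.48, and untreated Tmem173iΔmye library 3 was within or above the range of the Tmem173fl/fl libraries for H2-Aa, H2-Ab1, H2-Eb1 and Cd74. Over the alternatives run, H2-Aa ranged from -0.91 to -0.20 and H2-Ab1 from -0.99 to -0.043. H2-Eb1 ranged from -0.78 to -0.059 and Cd74 from -0.86 to -0.19. The Tmem173iΔmye libraries spread more for H2-Aa, H2-Ab1, H2-Eb1, H2-DMa, H2-DMb1, Ciita and Cd74, the last with an SD of 650 CPM against 151 CPM. They spread less for H2-DMb2, H2-Oa and H2-Ob, with SDs of 0.352, 0.413 and 0.949 CPM against 3.67, 1.39 and 5.75 CPM.

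In colitis, all 10 genes had fitted log2 changes above 0 in Tmem173iΔmye against Tmem173fl/fl mice, with a median of 1.11, against 0.02 over all genes. For H2-DMb2, H2-Oa and H2-Ob the sign turned in 5 of 13, 3 of 14 and 2 of 14 alternatives. None was called by the edgeR test, which called 2.81% of all genes. At an unadjusted p under 0.05 there were 5 genes, against 20.2% of all genes, and the same 5 passed DESeq2's adjusted test with the fold limit, which called 9.03% of the genes it tested. They were H2-Aa at 1.5 ± 0.36 (edgeR adjusted p = 0.0636), H2-DMb1 at 1.44 ± 0.36 (0.0720), Cd74 at 1.29 ± 0.39 (0.115), H2-DMa at 1.23 ± 0.33 (0.0882) and H2-Ab1 at 1.14 ± 0.33 (0.106). In each of them the lowest Tmem173iΔmye library was above the highest Tmem173fl/fl library, against 12% of all genes tested. For Cd74 the colitic Tmem173iΔmye mean was 1724 ± 554 CPM and the colitic Tmem173fl/fl mean 702 ± 322 CPM (SD, n = 3 each). H2-Eb1 (0.96 ± 0.43) and Ciita (1.07 ± 0.59) overlapped between the groups, in which Tmem173iΔmye library 5 was low and Tmem173fl/fl library 2 high. H2-DMb2, H2-Oa and H2-Ob differed by 0.05 ± 0.69, 0.22 ± 0.77 and 0.48 ± 0.73.

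The difference between the 2 effects of DSS was tested as an interaction over all 12 libraries. All 10 fitted values were above 0, meaning a less negative or more positive change in Tmem173iΔmye mice, with a median of 1.56, against 0.04 over all genes. For H2-DMb2 and H2-Oa the sign turned without colitic Tmem173iΔmye library 1, to -0.19 and -0.30. H2-DMb1 was called, at 1.93 ± 0.48 (edgeR adjusted p = 0.0487), against 2.55% of all genes called. H2-Aa (2.0 ± 0.51, edgeR adjusted p = 0.0546), H2-DMa (1.82 ± 0.48, 0.0633), Cd74 (1.76 ± 0.51, 0.0857), Ciita (1.61 ± 0.71, 0.250), H2-Ab1 (1.51 ± 0.54, 0.158) and H2-Eb1 (1.32 ± 0.57, 0.243) had an unadjusted p under 0.05. These 7 genes with H2-DMb1 included compare with 18.1% of all genes at that threshold. The interaction was 1.40 ± 0.86 for H2-Ob, 0.82 ± 0.98 for H2-Oa and 0.64 ± 0.81 for H2-DMb2, and none of these 3 had an unadjusted p under 0.05. The call of H2-DMb1 depended on the fit: limma and DESeq2 size factors in edgeR gave adjusted p of 0.0541 to 0.0723, leaving out any of 8 libraries lost it, and DESeq2, which called 7.78% of the genes it tested, called it with H2-Aa, H2-DMa and Cd74.

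**Figure D4:**
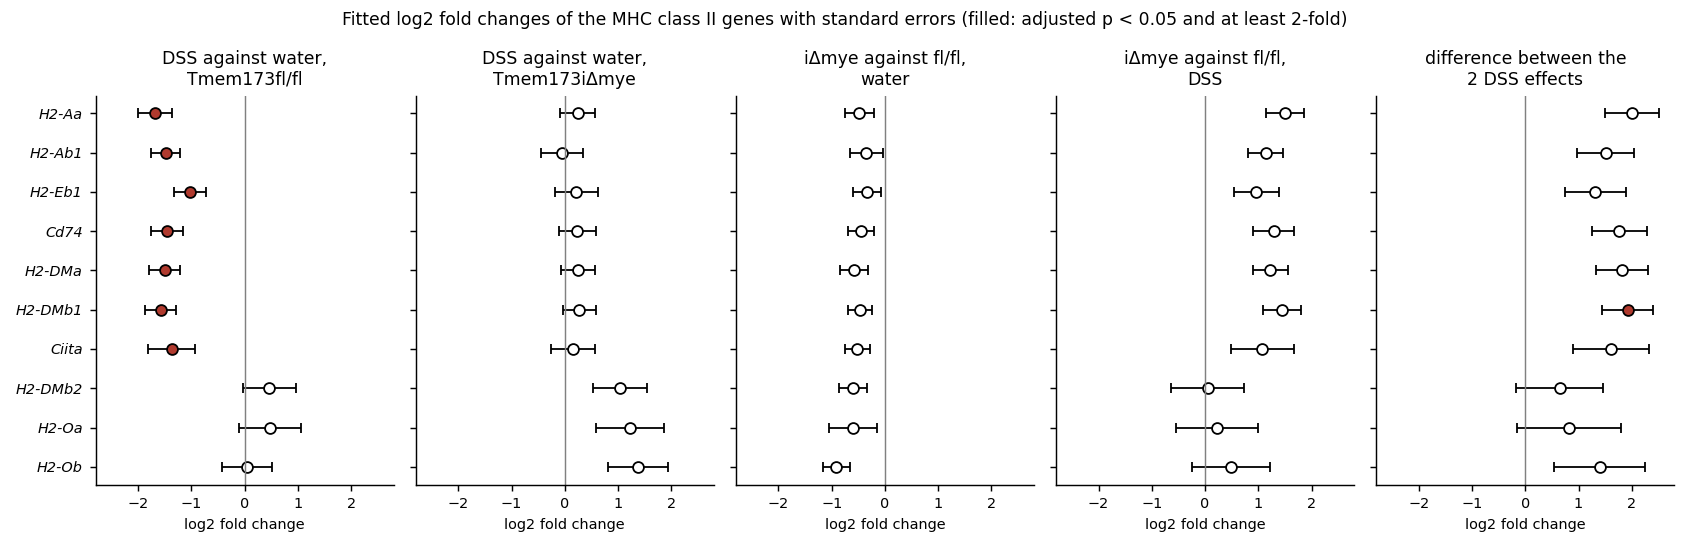
Each panel plots the fitted log2 change of the 10 class II genes with its standard error for a comparison, and filled points are genes with an adjusted p under 0.05 and a fold of at least 2. The 7 filled points of DSS in Tmem173fl/fl mice lie between -1.69 and -1.02, and H2-DMb1 at 1.93 is the filled point of the interaction.

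Of 9 genes of the interferon gamma pathway, which raises Ciita, 3 fell and none rose in colitic Tmem173fl/fl colon, where 7.61% of all genes were called lower and 14.9% higher. Cxcl9, a chemokine gene induced by interferon gamma, fell by 3.04 in log2 units (SE 0.59, edgeR adjusted p = 0.00285), with 79.5, 48.3 and 75.0 CPM untreated and 2.44, 16.9 and 3.81 CPM colitic. Irf1, which acts on a Ciita promoter, fell by 1.30 (edgeR adjusted p = 0.00110). The third, Ifng itself, was below the expression limit for naming and was looked up after its values were seen. It fell by 2.65 (edgeR adjusted p = 0.0261) from at most 47 reads per library. The receptor genes Ifngr1 and Ifngr2 had log2 changes of 0.05 and -0.17, the kinase genes Jak1 and Jak2 of 0.37 and -0.25, and none of these 4, named after their values were seen, was called. In Tmem173iΔmye mice none of the 9 was called with DSS, where 2.08% of all genes were called, and the list's median was 0.18, against 0.02 over all genes. In Tmem173fl/fl mice the median was -0.42, against 0.03. The 3 genes that fell in Tmem173fl/fl mice also had values below 0 there, at -1.33 for Cxcl9, -0.60 for Irf1 and -1.03 for Ifng (edgeR adjusted p = 0.165, 0.369 and 0.561). In colitis the genotypes differed by a median of 0.50 over this list, against 0.02 over all genes, with none called, against 2.81%.

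Of the 8 genes of the promoter complex that Ciita joins, Ciita included, Ciita was the only call in colitic against untreated Tmem173fl/fl colon, a share near the 7.61% of all genes called lower. Rfxank, Nfya and Creb1, named after their values were seen, had edgeR adjusted p of 0.0162, 0.0241 and 0.0132 but log2 changes of -0.83, -0.51 and -0.46, under the fold limit. Rfx5 and Rfxap had log2 changes of -0.12 and -0.20. None of the 8 was called in the other comparisons, where 0% to 2.81% of all genes were called.

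The proteases of the class II pathway moved the other way or were split. In colitic Tmem173fl/fl colon, 3 of 8 processing genes rose and 1 fell, where 14.9% of all genes were called higher. Ctsl, cathepsin L, was at 105, 75.1 and 76.8 CPM untreated and 368, 608 and 401 CPM colitic, a log2 change of 2.5 ± 0.23 (edgeR adjusted p = 3.27e-05). Lgmn, the legumain protease, rose by 2.41 ± 0.19 and Napsa, an aspartic protease, by 1.56 ± 0.35. Ctse, cathepsin E, fell by 2.69 in log2 units (SE 0.41, edgeR adjusted p = 0.000723). Ctss, cathepsin S, which trims Cd74 in dendritic cells and B cells, had a log2 change of -0.54 ± 0.17 and Ifi30, the lysosomal thiol reductase, one of -0.63 ± 0.17, both with an adjusted p under 0.05 and under the fold limit. Ctsb and Ctsd, cathepsins B and D, had log2 changes in the other direction with the same standing, at 0.68 ± 0.17 and 0.92 ± 0.16. These 4 are named after their values were seen. In Tmem173iΔmye mice Lgmn rose by 1.38 ± 0.24 with DSS and no other gene of the list was called, against 2.08% of all genes. Colitic Tmem173iΔmye mice had less Ctsl than colitic Tmem173fl/fl mice, with a difference of -1.78 ± 0.24 in log2 units (adjusted p = 0.0158, edgeR), which is the reverse of the sign of the class II genes.

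March1, the ubiquitin ligase that removes class II from the cell surface, rose in colitic Tmem173fl/fl colon. It was at 6.97, 5.48 and 11.5 CPM untreated and 15.8, 23.6 and 15.5 CPM colitic, a log2 change of 1.26 ± 0.30 (edgeR adjusted p = 0.00840). Its change in Tmem173iΔmye mice was 1.29 ± 0.33 and was not called (edgeR adjusted p = 0.0822), and the interaction was 0.10 ± 0.47. Of the 6 genes of this list, 2 rose, against 14.9% of all genes called higher. The second was Mr1 (1.23 ± 0.22), an MHC-like molecule that presents vitamin metabolites, and March8, a related ligase, had a log2 change of -0.01 ± 0.13. Cd83, which opposes March1, was at -0.36 ± 0.22 and was not called.

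Of the 11 costimulation and ligand genes, 2 rose and 1 fell in colitic Tmem173fl/fl colon, shares near those of all genes (14.9% called higher and 7.61% lower). Cd80, which costimulates T cells through Cd28, rose by 2.56 ± 0.37 and Ctla4, which competes for Cd80, by 1.40 ± 0.41. Cd274, the PD-L1 gene, fell by 1.10 in log2 units (SE 0.30, edgeR adjusted p = 0.0182). Cd4, whose product binds class II, had a log2 change of 0.35 ± 0.37. None of the 11 was called in the other comparisons, where 0% to 2.81% of all genes were called.

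Counts for marker lists of the cells that could hold class II stand beside 14.9% of all genes called higher and 7.61% called lower in colitic Tmem173fl/fl colon. There 8 of 11 macrophage markers rose, among them Cd163 (4.45), Mrc1 (3.24), Cd68 (1.97) and C1qa (1.96) on the log2 scale. Mertk (0.52), Adgre1 (0.93) and Cx3cr1, named after their values were seen, were not called. Cx3cr1 went the other way, at -0.75 ± 0.38 (edgeR adjusted p = 0.156). The summed CPM of the 11 markers was 409 to 582 in untreated and 1219 to 1686 in colitic Tmem173fl/fl libraries, and 368 to 479 and 670 to 1039 in the corresponding Tmem173iΔmye libraries. Lyz2, the Cre locus, is in this sum. It was at 150, 152 and 277 CPM untreated and 477, 505 and 336 CPM colitic in Tmem173fl/fl libraries. In Tmem173iΔmye libraries it was at 94.4, 76.4 and 115 CPM untreated and 319, 231 and 357 CPM colitic. The 670 CPM of colitic Tmem173iΔmye library 5 thus includes 357 CPM of Lyz2. The part of Lyz2 in the differences between the sums was not tested. Of 11 dendritic cell markers, 5 rose and 1 fell, with Clec10a (3.75), Ccr7 (2.72) and Batf3 (2.02) among the higher ones. The other 3 called, Flt3 (1.99), Zbtb46 (1.43) and Xcr1 (-1.80), had means under 1 FPKM and are named after their values were seen. Xcr1 marks the cross-presenting dendritic cells. The integrin genes Itgae and Itgax, named after their values were seen, had log2 changes of -0.70 and -0.68 (edgeR adjusted p = 0.0187 and 0.0511) and were not called. The dendritic sum was 58.1 to 64.5 CPM untreated and 76.9 to 123 CPM colitic in Tmem173fl/fl mice, and 44.4 to 68.1 and 34.4 to 150 CPM in Tmem173iΔmye mice, whose colitic libraries lay on either side of the untreated ones.

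Epithelial markers fell with the class II genes in Tmem173fl/fl mice. Of 10 epithelial genes 6 fell and none rose, against 7.61% of all genes called lower, among them Cdh1 (-1.26), Krt20 (-1.24), Krt8 (-1.22) and Epcam (-1.21). Their summed CPM was 14766 to 18490 in untreated and 5815 to 10045 in colitic Tmem173fl/fl libraries, and 15770 to 18823 and 12111 to 15185 in Tmem173iΔmye libraries, where none was called with DSS, against 2.08% of all genes. Within the colitic Tmem173fl/fl group the order was the reverse, with library 2 lowest for the epithelial sum and highest for Cd74. Of the B cell markers, Cr2 alone was called lower (-1.45 ± 0.45), and none of 9 T cell markers was called, with Cd3e at -0.45 and Cd3d at -0.21. All 8 neutrophil markers rose, and their sum was 46.4 to 106 CPM untreated and 454 to 760 CPM colitic in Tmem173fl/fl mice, and 45.7 to 81.3 and 201 to 313 CPM in Tmem173iΔmye mice. Of that sum, Ly6g held 101, 41.6 and 75.0 CPM in untreated Tmem173fl/fl and 217, 101 and 239 CPM in colitic Tmem173iΔmye libraries. S100a9 was at 164, 98.7 and 159 CPM in colitic Tmem173fl/fl and 21.8, 28.0 and 4.55 CPM in colitic Tmem173iΔmye libraries. Between colitic genotypes 5 of the 8 were called lower in Tmem173iΔmye mice, against 2.81% of all genes called in either direction. Of 7 plasma cell markers 3 rose, against 14.9% of all genes called higher. The part of these cell marker levels in the class II results was not tested.

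The relation of class II to cell markers between libraries depended on whether groups were centred. Pearson's r with the log2 macrophage sum, Lyz2 included, was -0.47 for Cd74 over the 12 libraries and 0.81 once groups were centred, and for H2-Eb1 it was -0.30 and 0.87. With the T cell sum it was 0.59 over the 12 libraries and 0.81 within groups for Cd74, and 0.70 and 0.82 for H2-Eb1. With the dendritic sum the values within groups were 0.69 for Cd74 and 0.76 for H2-Eb1, so within groups both genes followed several marker lists. With the epithelial sum it was 0.58 over the 12 libraries for Cd74 and -0.46 within groups. The genes most like the mean of H2-Aa, H2-Ab1, H2-Eb1 and Cd74 over the 12 libraries were, outside the 10, Gm26944 (r = 0.92), Tapbpl (0.91), Bid (0.90), Gm12216 (0.89), Gm4951 (0.89) and Idnk (0.89). After centring within groups they were Cst3 (0.95), E2f2 (0.93), Ighv1-31 (0.91), Nfkbia (0.91), Tpsb2 (0.91) and Ubd (0.90). Over the 12 libraries the r with that mean was 0.97, 0.97 and 0.94 for H2-DMa, H2-DMb1 and Ciita. For H2-DMb2, H2-Oa and H2-Ob it was 0.22, 0.13 and 0.24. After centring within groups the values were 0.94, 0.93 and 0.91, and 0.50, 0.37 and 0.33.

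Total counts ranged from 13823237 to 18718915 per library, and the 10 genes had from 16 reads (H2-Oa) to 35994 reads (Cd74) in a library. Tmem173 RNA in whole colon was 14.4 to 24.5 CPM in untreated Tmem173fl/fl and 14.6 to 21.3 CPM in untreated Tmem173iΔmye libraries, and the genotypes did not differ by the test untreated (-0.21 ± 0.22) or colitic (-0.28 ± 0.26). In colitis it was 37.7 to 44.0 CPM in Tmem173fl/fl and 23.8 to 47.8 CPM in Tmem173iΔmye libraries, of which library 1 was the highest of all 12. Deletion in myeloid cells was not measured separately in these libraries. Lyz2, the Cre locus, differed by -1.01 ± 0.23 between untreated genotypes (edgeR adjusted p = 1) and by -0.54 ± 0.25 in colitis. In a principal component analysis, colitic Tmem173iΔmye library 5 stood apart, at -114 on the second component, where the other 11 libraries lay between -26.5 and 31.6. On the first component, which held 39% of the variance, it was at -32, between the 6 untreated libraries (-72.95 to -47.55) and the other 5 colitic ones (15.55 to 119.77). Without library 5, 0 of the 10 genes were called in the comparison of colitic genotypes and 1 in the interaction, the same counts as with it.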

How the data were processed

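RNA of whole colon was sequenced after polyA selection, with 1 library per sample. Per the labels and the submitters' processing notes, the authors used CASAVA 1.8, fastp, HISAT2 2.0.5, featureCounts 1.5.0-p3 and DESeq2 1.20.0 with mm10/GRCm38. The deposited table gives whole read counts per gene, not normalized, and FPKM, for which the authors divided counts by gene length and a scaled library size (per library, 0.892 to 1.04 times the FPKM that the library total would give). The authors' gene lengths, which served for levels per kilobase, are deposited with it. Its group means, fold changes and p-values hold the study's own comparisons and were not used. From the counts, genes at 0.1 FPKM or more in at least 3 of 12 libraries (24102 of 54532) were tested with edgeR 4.0.16 (R 4.3.3), TMM scaling and the quasi-likelihood test, fitting only the 2 groups compared, or all 12 libraries for the interaction. A gene was called when it changed by 1 or more on the log2 scale, in either direction, with a p under 0.05 after Benjamini-Hochberg adjustment. The SE was derived from the log2 change and F. Alternatives were DESeq2 1.42.0, limma 3.58.1 on log2(FPKM + 0.1) and log2(FPKM + 1), DESeq2 size factors in edgeR, no filter, 1 fit of all libraries, a replicate block, other call rules, summed H2-DMb1 and H2-DMb2, and leaving out each library. Fits were tested on simulated data.

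The 10 genes and all lists were chosen with earlier results of these data known, and 2 listed genes are not reported here and enter no list or sum. All 10 are named with every library. From each list, at most 4 called genes with a mean of at least 1 FPKM and the largest change were named, or the first 2 of the list where none was called, the latter in colitic against untreated Tmem173fl/fl mice only, and any other gene given with values, whether or not it is marked so, was named after its values were seen. Genes most alike were the first 6 by Pearson's r of log2(FPKM + 0.1) over the 12 libraries. The symbols March1 and March8 stand in the table as calendar dates and were restored from the gene descriptions. The labels do not say how samples of a group relate beyond their number, so p-values measure the spread between these samples. Libraries had 13823237 to 18718915 counts, and the part of counting error in the spread between libraries was not tested. Promoters are RefSeq's for GRCm38.p6.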

Additional observations from a re-analysis of the deposited data

Results flagged for a closer look

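The change with DSS differed between the genotypes by a test of the difference itself (the edgeR interaction, log2 scale, positive where Tmem173iΔmye mice had the less negative or more positive change) for 1 of the 10 class II genes and 5 of 108 other listed genes, against 2.55% of all genes tested. H2-DMb1 had an interaction of 1.93 ± 0.48 (edgeR adjusted p = 0.0487), from a log2 change of -1.58 in Tmem173fl/fl and 0.27 in Tmem173iΔmye mice. The protease gene Ctsl had an interaction of -1.96 ± 0.29 (edgeR adjusted p = 0.00590), and the macrophage scavenger receptor genes Mrc1 and Cd163 of -2.08 ± 0.31 and -2.69 ± 0.52 (edgeR adjusted p = 0.00590 and 0.0167). Cdh1, the E-cadherin gene of epithelium, had an interaction of 1.2 ± 0.29 (edgeR adjusted p = 0.0468). Sdc1, which plasma cells and epithelium share, had one of -1.38 ± 0.24 (edgeR adjusted p = 0.00960). The signs of Ctsl, Mrc1 and Cd163 were opposite to that of H2-DMb1.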

How the results depend on the processing

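Of the 5 comparisons, DSS in Tmem173fl/fl mice called 5 to 7 of the 10 genes under every alternative run and untreated genotypes called 0. For DSS in Tmem173iΔmye mice the count of 0 became 1 under the unadjusted rule with the fold limit and 0 to 1 when leaving out each library, with 1 without colitic Tmem173iΔmye replicate 2. For colitic genotypes the count of 0 became 5 under the unadjusted rule, 5 with no filter on low values, 5 in DESeq2, 4 in 1 fit of all 12 libraries and 3 with a replicate block, and stayed at 0 when leaving out any library. That block rests on libraries 1 and 2 of each colitic group, since numbers 3 and 5 are not shared. For the interaction the count of 1 became 7 under the unadjusted rule, 5 with no filter, 4 in DESeq2, 4 with a replicate block, 0 in limma at either pseudocount (0 and 0), 0 with DESeq2 size factors and 0 with H2-DMb1 and H2-DMb2 summed, and ranged from 0 to 4 when leaving out each library, with 4 without untreated Tmem173iΔmye replicate 3 and 3 without colitic Tmem173fl/fl replicate 2 or colitic Tmem173iΔmye replicate 1. The share of all genes called moved too. For colitic genotypes it was 2.81% as reported, 10.4% under the unadjusted rule, 4% with no filter, 9.03% in DESeq2, 6.19% in 1 fit, 3.52% with the block and 0.112% to 6.61% when leaving out each library. For the interaction it was 2.55% as reported, 11.4%, 3.69%, 7.78% and 2.45% under the unadjusted rule, no filter, DESeq2 and the block, 2.06% and 2.51% in limma, and 1.11% to 7.17% when leaving out each library. For DSS in Tmem173iΔmye mice it was 9.1% under the unadjusted rule and 1.54% without colitic replicate 2. The cause of these differences was not tested. No filter tests more genes, and leaving out a library fits fewer samples.

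Signs turned for genes that were near 0 or followed single libraries, all of them not called. For DSS in Tmem173fl/fl mice H2-Ob was at -0.17 and -0.11 in limma with pseudocounts of 0.1 and 1, -0.022 in 1 fit and -0.14 with a replicate block. When leaving out each library, H2-Ob ranged from -0.48 to 0.44, H2-DMb2 from -0.055 to 0.88 and H2-Oa from -0.18 to 0.90. For DSS in Tmem173iΔmye mice H2-Ab1 was at 0.11 in limma with either pseudocount and 0.80 with a replicate block. When leaving out each library, H2-Ab1 ranged from -0.35 to 0.61, H2-Aa from -0.029 to 0.70, H2-Eb1 from -0.070 to 0.69, Cd74 from -0.023 to 0.66, H2-DMa from -0.0051 to 0.71 and Ciita from -0.12 to 0.59. For colitic genotypes H2-DMb2 was at -0.018 and -0.020 in limma with pseudocounts of 0.1 and 1, and H2-DMb2, H2-Oa and H2-Ob were at -0.69, -0.43 and -0.49 with a replicate block, which rests on libraries 1 and 2 of each group. When leaving out each library they ranged from -0.80 to 0.55, -0.92 to 0.87 and -0.35 to 1.0. In the interaction H2-DMb2 ranged from -0.19 to 1.09 and H2-Oa from -0.30 to 1.41.

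Over all alternatives, 647 of the values for single genes kept their direction and their side of the threshold, 25 lost a call, 35 gained one and 33 changed sign. The samples share only a replicate number: the deviations of 15 pairs of the same number had r from -0.08 to 0.11. With the block, 7, 0, 0, 3 and 4 of the 10 genes were called in the 5 comparisons. For colitic genotypes the block drops Tmem173fl/fl library 3 and Tmem173iΔmye library 5, whose numbers are not shared, and in the interaction it drops colitic Tmem173iΔmye library 5. For DSS in Tmem173iΔmye mice, where only numbers 1 and 2 are shared and libraries 3 and 5 drop out, the block moved the 7 genes that fell in Tmem173fl/fl mice from between -0.05 and 0.27 to between 0.80 and 1.0 (edgeR adjusted p = 0.0113 to 0.0492), under the fold limit. H2-Oa had the fewest reads of the 10 genes (16 to 120), and the part of depth in its spread was not tested.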
